A study of Mus musculus with 5 samples.

Results

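The renin-angiotensin genes *Ren1*, *Agt*, *Ace* and *Agtr1a* and the brush border peptidase genes *Enpep*, *Mme* and *Anpep* were taken by name from the count matrix. All 7 were present among 17389 genes. They are described across the 5 libraries and those of the 19 annotated cell types that had enough cells. Renin, from *Ren1*, cuts angiotensinogen, from *Agt*, to angiotensin I, and angiotensin-converting enzyme, from *Ace*, cuts this to angiotensin II, which acts on the type 1 receptor encoded by *Agtr1a*. Aminopeptidase A (*Enpep*), neprilysin (*Mme*) and aminopeptidase N (*Anpep*) are membrane peptidases that trim or degrade angiotensins and other peptides on cell surfaces, among them the brush border of the proximal tubule. Renin is secreted by juxtaglomerular cells in the wall of the afferent arteriole, next to the glomerulus.

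The cells came from dissociated kidneys of adult mice of the FVB/Ant strain, with *Fame* knockout mice, in which CRISPR/Cas9 had placed a pair of STOP codons after the start codon, and littermate controls. Knockout (KO) mice gave 3 libraries, KO female, KO male and KO mix, and wild type (WT) mice gave 2, WT female and WT mix, where mix means cells of both sexes. WT has no library of males alone, so sex and genotype are partly confounded. How many mice went into a library is not stated, so p-values do not measure spread between mice, and the spread between libraries may be technical.

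Transcripts were captured at the 3′ end and counted as unique molecular identifiers (UMIs), 1 for each captured molecule. The libraries held 1794 to 3567 cells and 9791091 to 15950717 UMIs, with a median of 2413.5 to 3016 UMIs per cell. The annotation gives run 2 for the 3 single-sex libraries and run 3 for both mixed ones, and does not say what kind of run is meant. The median mitochondrial share was 12.6% to 15.3% in run 2, 29.4% in KO mix and 28.4% in WT mix. Pairs of libraries shared 0 to 5 cell barcodes. Of 47 marker genes of 15 lists, 45 were highest in the cell type that carries their name or, for the 3 mesangial markers, in GL_sc. The exceptions were *Slc22a7* and *Atp11a*, listed for PT_s and highest in PT_f. The targeted gene was not analysed here, so the knockout and wild type labels were not checked against it. Intervals for shares of cells are 95% exact binomial intervals and cover counting error only.

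Levels are given as CPM, the UMIs of a gene per 1000000 UMIs summed over all cells of a type in a library, with libraries of fewer than 20 cells of the type left out of means. Parietal epithelium (PE) had 2 to 19 cells in each library, so it enters no mean and no ranking of cell types. The annotation names the proximal tubule clusters PT_c (convoluted), PT_s (straight), PT_f (female-specific), PT_1 and PT_2 (unidentified). It further uses GL_endo, GL_podo and GL_sc for glomerular endothelium, podocytes and putative stem cells, LOH for the loop of Henle, and Juxt_ldl_LOH for its long descending limb in juxtamedullary nephrons. DCT is the distal convoluted tubule, CD_PC and CD_IC/CD_Trans are collecting duct principal and intercalated or transitional cells, VSMC vascular smooth muscle, PE parietal epithelium, Fib fibroblasts and RBC red blood cells. Among the cell types with a mean, the 7 genes were led by 5 different ones. *Ren1* was highest in VSMC, *Agt*, *Ace* and *Anpep* in PT_f, *Agtr1a* in GL_sc, *Enpep* in GL_podo and *Mme* in CD_IC/CD_Trans. Neighbours in the order of means are compared below by sign-flip permutation over libraries. The clusters were defined from the same cells, and the pairs were picked by the same levels. The sign-flip p-values are therefore a description and are not used as support for a difference. In all, the files hold 9847 UMIs of *Ren1*, 419 of *Agt*, 1031 of *Ace*, 1181 of *Agtr1a*, 2769 of *Enpep*, 4522 of *Mme* and 1978 of *Anpep*. Blood cells, annotated RBC, T/NK or myeloid, were used to read the level that free RNA can give in each library.

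**Figure D1:**
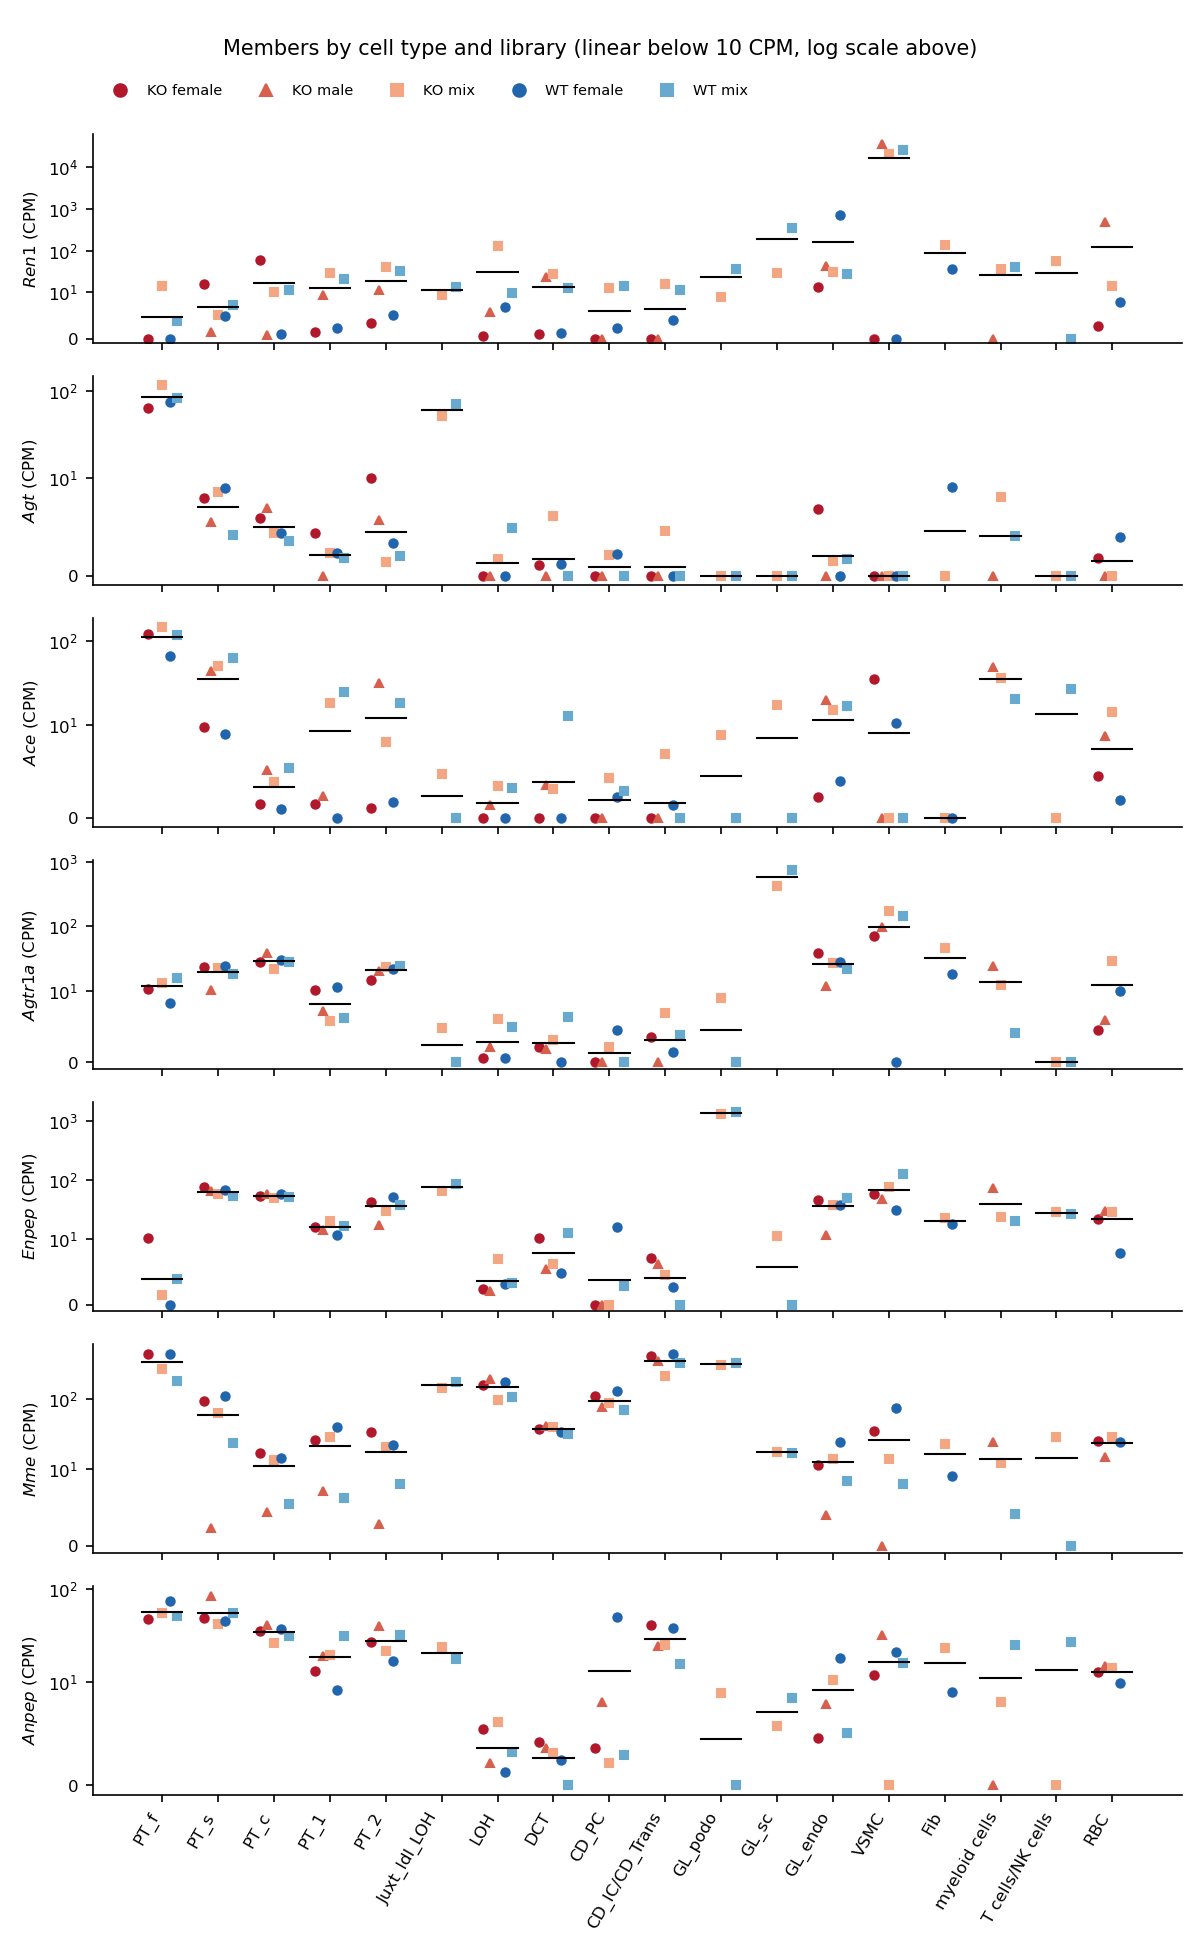
Levels of the 7 genes in CPM (vertical axes, linear below 10 CPM and on a log scale above) by annotated cell type (horizontal axis). Points are libraries with at least 20 cells of the type, reds and oranges for knockout and blues for wild type, and bars are their means. The *Ren1* points of VSMC lie at 0 in KO female and WT female and at 20636 CPM or more in the other 3 libraries.

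*Ren1* (chromosome 1, 133350674 to 133360320, GRCm38.p6) was almost confined to a few cells with very high counts. In VSMC it stood at 0 CPM in KO female, 36524 in KO male, 20636 in KO mix, 0 in WT female and 25316 in WT mix, with a mean of 16495 ± 16127 (SD, n = 5). The libraries of females alone had none, and the other 3 overlapped between genotypes. The next cell types by mean, GL_sc and GL_endo, reached 192 ± 231 (SD, n = 2) and 165 ± 305 CPM (SD, n = 5). VSMC stood above GL_sc in both libraries that had enough cells of each (exact two-sided sign-flip permutation p = 0.5, the smallest that 2 libraries allow). A near-identical copy, *Ren2*, which some mouse strains carry, is not among the genes analysed here, and whether *Ren1* UMIs include reads from such a copy was not tested.

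The promoter of *Ren1* is shown for the TATA box close to its start. RefSeq (GRCm38.p6) gives windows of 250 bases before to 50 bases after a transcript start for 6 of the 7 genes, 9 windows in all, with none for *Agtr1a*. Capitals mark the motif TATAAA, searched on both strands. The window is chr1:133350424-133350723, plus strand, and its motif begins 29 bases before the start.
Ren1 promoter: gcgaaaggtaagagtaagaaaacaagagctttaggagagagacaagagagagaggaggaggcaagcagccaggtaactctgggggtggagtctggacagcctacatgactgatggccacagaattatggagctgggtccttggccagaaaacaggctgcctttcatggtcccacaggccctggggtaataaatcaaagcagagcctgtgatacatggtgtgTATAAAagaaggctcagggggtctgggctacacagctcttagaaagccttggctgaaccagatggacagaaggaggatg
The *Agt* window also holds TATAAA, 30 bases before the start, and TATAAA occurs on either strand in 13.6% of all 32851 windows of this length. Both windows hold 1 CG dinucleotide, against a median of 7 over all windows. On neither strand did the 9 windows hold GTTAAT, a short HNF1 motif (in 7.10% of all windows), AGAACA, a short motif of the androgen and glucocorticoid receptors (19.0%), the HNF4 motif CAAAGTCCA (0.475%) or the cyclic AMP response element TGACGTCA (1.79%).

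Cells with at least 10 *Ren1* UMIs, called renin-rich here, numbered 40 of 14197 and held 9333 UMIs, or 94.8% of all *Ren1* UMIs. The cell with the most had 1198. Just above the limit the lowest cell had 13 UMIs and 3 cells had 10 to 19, while just below it the highest cell had 9 and 8 cells had 5 to 9. Of the 40, 32 were annotated VSMC and held 84.9% of all *Ren1* UMIs. In VSMC they made up 0 of 21 cells in KO female, 5 of 27 in KO male, 11 of 74 in KO mix, 0 of 27 in WT female and 16 of 69 in WT mix. The exact upper limits of the shares at 0 were 16.1% in KO female and 12.8% in WT female. The measured shares were 18.5% (6.30 to 38.1) in KO male, 14.9% (7.66 to 25.04) in KO mix and 23.2% (13.9 to 34.9) in WT mix. The interval of KO female overlapped those of the other knockout libraries, while that of WT female lay just below that of WT mix. Cells of both sexes were among the renin-rich VSMC. Sex was called from *Xist* and from 4 Y-linked genes, and the renin-rich VSMC included 1 male and 4 female cells in KO mix and 7 male and 2 female cells in WT mix.

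The other 8 renin-rich cells carried other annotations. They were 1 PT_c cell with 198 *Ren1* UMIs and 2 PT_s cells with 56 and 22 in KO female, an RBC with 159 and a DCT cell with 13 in KO male, an LOH cell with 127 in KO mix, a GL_endo cell with 354 of its 1637 UMIs in WT female, and a GL_sc cell with 42 in WT mix. The pair of PT_s cells had 47696 and 29411 UMIs in all, far above the library medians. These single cells set the *Ren1* level of several cell types. Without them GL_endo of WT female had 4.00 CPM in place of 710, PT_c of KO female 0.892 in place of 59.7, LOH of KO mix 20.1 in place of 131, and RBC of KO male 5.93 in place of 475. Without renin-rich cells VSMC averaged 142 CPM (0 to 292 over 5 libraries), GL_endo 23.6, and PT_s 3.97. RBC then averaged 7.67 CPM, against 3.97 to 18.3 CPM over the 5 PT clusters.

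**Figure D2:**
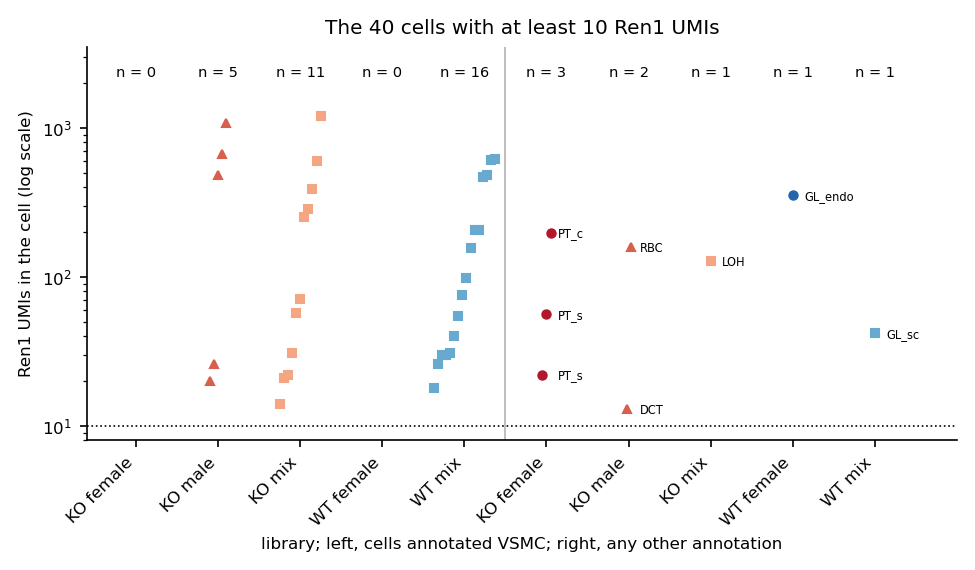
*Ren1* UMIs per cell (vertical axis, log scale) in the 40 cells with at least 10 *Ren1* UMIs, by library (horizontal axis), with VSMC on the left and other annotations, named beside the points, on the right. Each point is a cell, spread sideways by rank, and the dotted line is the limit of 10 UMIs. KO female and WT female have none among VSMC, and 8 cells lie outside VSMC.

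Renin-rich VSMC differed from the other VSMC in more than *Ren1*. They are described without a test, since they were chosen by a count of these cells. *Akr1b7*, an aldo-keto reductase known as a marker of mouse renin cells, had 1765 CPM in the 32 renin-rich cells and 79.3 in the other 186 VSMC. *Gja5*, the gap junction protein connexin 40, had 212 and 13.6 CPM, and *Agtr1a* 254 and 83.9. The other detected genes of the renin cell list were lower in renin-rich VSMC, *Rgs5* with 2231 against 3613 CPM, *Crip1* with 1624 against 2521, and *Gja4* (connexin 37) with 70.6 against 118. Contractile genes were lower in renin-rich VSMC. *Acta2* (smooth muscle actin) had 1228 CPM in renin-rich and 8412 in other VSMC, *Tagln* 904 and 7938, *Myh11* 692 and 2414, and *Cnn1* 28.2 and 458. *Ren1* itself had 118052 CPM in the renin-rich and 152 in the other VSMC, which lowers the CPM of all other genes in the renin-rich cells. Of the 8 genes listed for renin cells, *Nkd2*, *Aldh1a1* and *Pde3b* had 0 UMIs in the renin-rich VSMC, as had the endothelial genes *Kdr*, *Flt1* and *Pecam1*. The other 186 VSMC had only 2, 5 and 4 UMIs of the first group and 3, 9 and 4 of the endothelial genes. The zeros in 32 cells therefore say little. The remaining endothelial marker, *Emcn*, had 98.8 CPM in renin-rich and 127 in other VSMC.

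*Agt* (chromosome 8, 124556587 to 124569706, minus strand) gave few UMIs, most of them in the proximal tubule. PT_f had 63.7 CPM in KO female, 114 in KO mix, 74.0 in WT female and 81.7 in WT mix, with a mean of 83.5 ± 21.9 (SD, n = 4). All 4 libraries stood above every PT_s and PT_c level of *Agt*. Juxt_ldl_LOH had 51.8 CPM in KO mix and 69.6 in WT mix, a mean of 60.7 ± 12.5 (SD, n = 2), and it led PT_f when each cell's share of UMIs was averaged instead (81.1 against 68.1). PT_s averaged 7.04 ± 2.10 and PT_c 5.02 ± 1.36 CPM (SD, n = 5 each). PT_f stood above Juxt_ldl_LOH in 2 of 2 libraries (exact sign-flip p = 0.5, the smallest possible) and PT_s above PT_c in 4 of 5 (exact sign-flip p = 0.188). Blood cells had 0 to 7.04 CPM of *Agt* where at least 20 were counted as RBC or as T/NK and myeloid cells, except 13.4 in KO male from 1 UMI. PT_f and Juxt_ldl_LOH lay above all of these, and PT_s and PT_c within or close to them.

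*Ace* (chromosome 11, 105967948 to 105989964) had the same leading cluster. PT_f had 122 CPM in KO female, 145 in KO mix, 65.7 in WT female and 117 in WT mix, with a mean of 112 ± 33.4 (SD, n = 4). PT_s had 9.81 in KO female, 43.4 in KO male, 50.9 in KO mix, 8.99 in WT female and 63.1 in WT mix, so the female libraries of both genotypes were low and the other 3 high. In PT_c *Ace* lay between 0.974 and 5.35 CPM. PT_f was above PT_s in 4 of 4 libraries (exact sign-flip p = 0.125, the smallest possible with 4). In myeloid cells *Ace* averaged 35.2 ± 14.2 CPM (SD, n = 3), and in GL_endo it lay between 2.27 and 19.7.
The first of 2 RefSeq windows of *Ace* (chr11:105967698-105967997, plus strand) is shown because *Ace* differs by segment and sex, and it holds 29 CG dinucleotides. Capitals mark TATAAA read on the other strand, TTTATA, 31 bases before the start.
Ace promoter: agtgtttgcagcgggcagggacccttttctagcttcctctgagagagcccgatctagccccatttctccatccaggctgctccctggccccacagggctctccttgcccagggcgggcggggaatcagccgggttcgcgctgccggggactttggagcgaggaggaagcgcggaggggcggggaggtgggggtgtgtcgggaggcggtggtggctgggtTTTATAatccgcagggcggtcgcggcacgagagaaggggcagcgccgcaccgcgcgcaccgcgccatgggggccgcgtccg

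*Agtr1a* (chromosome 13, 30336356 to 30382867) was highest in GL_sc, with 412 CPM in KO mix and 753 in WT mix, a mean of 583 ± 241 (SD, n = 2). The authors call GL_sc putative stem cells. In the same cells the mesangial markers *Pdgfrb*, *Gata3* and *Itga8* averaged 500, 684 and 1209 CPM, the highest level of each over all types with a mean. *Agtr1a* was found in 60.1% of 143 GL_sc cells (51.6 to 68.2), at a median of 1797 UMIs per cell, while T/NK and myeloid cells of KO mix and WT mix, the libraries that held most GL_sc cells, had one in 1.75% and 0.595%, at medians of 1492 and 1418 UMIs, and 2 of 41 RBC of KO mix had one. VSMC had 70.6 CPM in KO female, 96.3 in KO male, 173 in KO mix, 0 in WT female and 144 in WT mix. PT_c lay between 21.6 and 38.8, PT_s between 10.2 and 24.5, and GL_endo between 11.8 and 38.6 CPM. PT_c and GL_endo did not separate, with PT_c higher in 3 of 5 libraries (exact sign-flip p = 0.688).

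*Enpep* (chromosome 3, 129269177 to 129332749, minus strand) was by far highest in podocytes, and the proximal tubule held most of its other UMIs. GL_podo had 1333 CPM in KO mix and 1438 in WT mix, a mean of 1385 ± 74.6 (SD, n = 2), and a UMI was found in 87.5% of the 64 podocytes (76.8 to 94.4) at a median of 2262 UMIs. Of T/NK and myeloid cells of the same libraries, 3.51% had one in KO mix and 2.98% in WT mix, at medians of 1492 and 1418 UMIs, as had 4.88% of RBC in KO mix. The run 2 libraries held 1 to 5 podocytes each and enter no mean. Juxt_ldl_LOH had 76.5 ± 14.8 CPM (SD, n = 2) and VSMC 68.5 ± 36.8 (SD, n = 5). The 44 PE cells, pooled over libraries, had 131 CPM, with a UMI in 34.1% of them (20.5 to 49.9). PT_s had 76.3 in KO female, 64.6 in KO male, 57.4 in KO mix, 67.3 in WT female and 53.8 in WT mix, and PT_c 54.7, 57.7, 50.5, 58.5 and 51.1 in the same libraries. PT_s was above PT_c in 5 of 5 libraries (exact sign-flip p = 0.0625, the smallest that 5 allow), by a mean of 0.22 on the log2 scale. PT_f was the exception among proximal tubule clusters, with 10.6 CPM in KO female, 1.45 in KO mix, 0 in WT female and 3.89 in WT mix. Each lies below blood cells of its library, which had 21.7 CPM (KO female), 28.3 (KO mix) and 7.93 (WT female) in RBC and 21.4 (WT mix) in T/NK and myeloid cells.

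*Mme* (chromosome 3, 63295211 to 63383713) was high in collecting duct cells, PT_f and podocytes. CD_IC/CD_Trans had 413 CPM in KO female, 359 in KO male, 217 in KO mix, 453 in WT female and 328 in WT mix, a mean of 354 ± 90.7 (SD, n = 5). PT_f had 452 in KO female, 274 in KO mix, 452 in WT female and 183 in WT mix. The levels of these cell types overlapped, with CD_IC/CD_Trans higher in 2 of 4 libraries (exact sign-flip p = 0.875). GL_podo had 313 CPM in KO mix and 332 in WT mix, and Juxt_ldl_LOH 146 and 178. The 44 PE cells, pooled over libraries, had 287 CPM, with a UMI in 59.1% of them (43.2 to 73.7). LOH ranged from 97.5 CPM in KO mix to 197 in KO male and was above CD_PC in 5 of 5 libraries (exact sign-flip p = 0.0625, the smallest possible), where CD_PC had 69.6 to 131. In PT_s the libraries spread far apart, with 95.5 CPM in KO female, 2.27 in KO male, 63.6 in KO mix, 110 in WT female and 23.0 in WT mix, in the order of their share of female cells within each genotype.
The first of 3 *Mme* windows of RefSeq (chr3:63294961-63295260, plus strand) is shown because *Mme* had the largest sex difference of the 5 genes tested in PT_s. It holds 4 CG dinucleotides, the other windows 32 and 29, and none of the motifs above.
Mme promoter: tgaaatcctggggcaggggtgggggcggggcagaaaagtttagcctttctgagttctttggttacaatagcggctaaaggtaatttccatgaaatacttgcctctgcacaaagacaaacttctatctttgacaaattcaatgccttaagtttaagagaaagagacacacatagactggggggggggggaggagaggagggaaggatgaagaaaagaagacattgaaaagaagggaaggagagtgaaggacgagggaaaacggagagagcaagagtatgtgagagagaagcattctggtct

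*Anpep* (chromosome 7, 79821803 to 79848210, minus strand) had similar levels in PT_f and PT_s. PT_f averaged 56.8 ± 11.8 CPM (SD, n = 4) and PT_s 54.9 ± 17.4 (SD, n = 5), and PT_f was higher in 2 of 4 libraries (exact sign-flip p = 0.5). PT_s had 48.5 CPM in KO female, 84.8 in KO male, 41.4 in KO mix, 44.96 in WT female and 55.0 in WT mix, against 35.3, 40.5, 25.96, 37.0 and 30.9 CPM in PT_c of the same libraries. PT_s was above PT_c in 5 of 5 (exact sign-flip p = 0.0625, the smallest possible), and KO male stood out as the highest. RBC had 9.91 to 14.8 CPM.
The *Anpep* window (chr7:79848161-79848460, minus strand) is shown beside that of *Mme* as a peptidase promoter rich in CG. It holds 28 CG dinucleotides and none of the motifs above.
Anpep promoter: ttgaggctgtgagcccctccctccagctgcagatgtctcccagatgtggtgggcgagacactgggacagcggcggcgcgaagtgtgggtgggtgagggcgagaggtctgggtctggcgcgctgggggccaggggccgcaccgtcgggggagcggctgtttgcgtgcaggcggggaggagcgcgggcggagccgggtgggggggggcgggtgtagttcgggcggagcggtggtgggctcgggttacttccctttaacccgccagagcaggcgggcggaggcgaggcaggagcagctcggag

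Between the proximal tubule segments the 7 genes spread from far higher in PT_s to lower. These clusters were defined from the same cells, so the values, like the sign-flip p-values above, are a description and no test of a difference. The log2 difference of PT_s over PT_c was 3.46 (SE 0.20) for *Ace*, 2.46 (SE 0.22) for *Mme*, 0.73 (SE 0.14) for *Anpep*, 0.60 (SE 0.24) for *Agt*, 0.32 (SE 0.11) for *Enpep*, -0.45 (SE 0.20) for *Agtr1a* and -1.08 (SE 0.46) for *Ren1*. For *Ren1*, KO female had 15.6 CPM in PT_s, with 2 renin-rich cells, and 59.7 in PT_c, with 1. *Ren1* was also lower in PT_s in KO mix (5.03 against 10.1 CPM) and WT mix (7.17 against 11.3), where neither cluster held a renin-rich cell. It was higher in PT_s in KO male and WT female, and DESeq2 gave a log2 difference of -0.30. Without renin-rich cells *Ren1* averaged 3.97 CPM in PT_s and 4.82 in PT_c. By edgeR 25.3% of 9518 genes differed, 15.0% higher and 10.3% lower in PT_s, and nothing is read from these counts. *Ace* was higher in PT_s in all 5 libraries. *Mme* was higher in 4, and in KO male it had 2.27 CPM in PT_s and 4.31 in PT_c. Other brush border peptidases went both ways. *Mep1a* (meprin alpha) was higher by 1.79 and *Ggt1* (gamma-glutamyltransferase) by 1.29 in PT_s, while *Dpep1* (dipeptidase 1) differed by -1.95, *Xpnpep2* by -1.78 and *Cltrn* (collectrin) by -0.36.

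**Figure D3:**
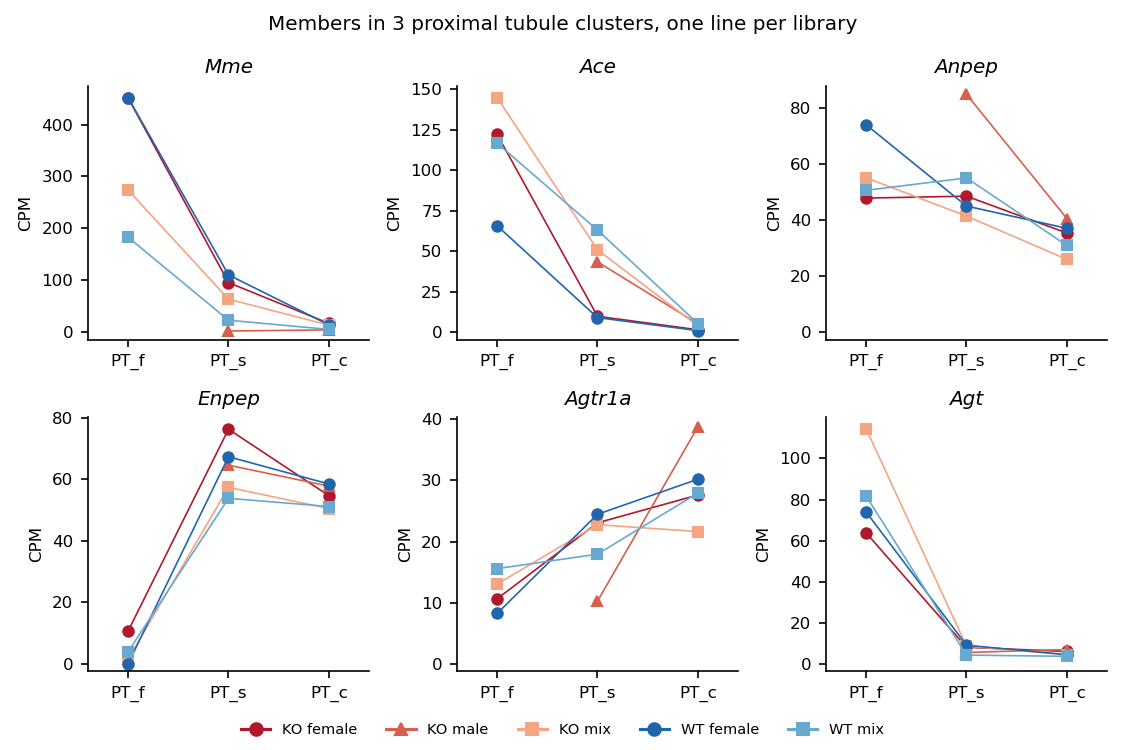
Levels in CPM (vertical axes) of 6 genes in PT_f, PT_s and PT_c (horizontal axis), with a line for each library and no PT_f point for KO male, which had 9 such cells. *Ace*, *Agt* and *Mme* are highest in PT_f, while *Enpep* lies at 0 to 10.6 CPM there and above 50 in PT_s and PT_c.

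The comparison of male with female cells asked how the peptidases and receptors vary with sex, which the mixed libraries allow within a library. A cell was called female with at least 1 *Xist* UMI and no Y-linked UMI, and male in the reverse case. Calls in the single-sex libraries were wrong in 0 cells. These libraries hold no cells of the other sex, so this does not measure wrong calls from free RNA in the mixed libraries. In PT_s, 235 of 636 cells of KO mix and 489 of 799 of WT mix had no call and were left out. Of called PT_s cells, 30.2% were male in KO mix and 69.7% in WT mix, against 22.7% and 67.9% of called cells of all types. UMIs were summed per sex in both mixed libraries and tested by the quasi-likelihood test of edgeR with the library as a block, which leaves 1 residual degree of freedom, and p-values were adjusted over all genes tested (Benjamini-Hochberg, threshold 0.05). The spread used by this test is taken mainly over genes. A small p-value therefore does not show that the mixed libraries agree on a gene. In PT_s, 17.0% of 6760 genes passed, 8.93% higher and 8.09% lower in male cells. Of the 7 genes 5 were tested, of which *Ace* and *Anpep* rose, *Mme* fell, and *Enpep* and *Agtr1a* did not pass. *Agt* and *Ren1* were too low to be tested.

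*Mme* had 10.2 CPM in male PT_s cells of KO mix, 3.78 in those of WT mix and 2.27 in KO male, against 133 in female cells of KO mix, 122 in those of WT mix, 95.5 in KO female and 110 in WT female. Every male sum lay below every female sum, in both genotypes and both runs. The log2 fold change of male over female within the mixed libraries was -4.09 (SE 0.31, edgeR adjusted p = 2.33e-36), and DESeq2 gave -4.13 (adjusted p = 7.48e-09). The male levels were at or near those in blood cells of the same libraries, where *Mme* had 14.1 CPM in KO mix and 3.57 in WT mix among T/NK and myeloid cells and 14.8 in KO male among RBC. A UMI was found in 2.30% of KO male PT_s cells (1.11 to 4.20) and in 3.13% of its RBC, at medians of 8708 and 1679 UMIs, so the male level is not distinguishable from free RNA. Female PT_s levels were above the 25.3 CPM of RBC in KO female and 23.8 in WT female.

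*Ace* went the other way, with 57.2 CPM in male PT_s cells of KO mix, 75.7 in those of WT mix and 43.4 in KO male, against 36.1, 16.3, 9.81 and 8.99 in female cells of KO mix, WT mix, KO female and WT female. Male and female sums did not overlap, although KO mix females came close to KO male. T/NK and myeloid cells had 31.7 CPM of *Ace* in KO mix and 21.4 in WT mix, close to female PT_s cells of these libraries. RBC had 4.53 in KO female and 1.98 in WT female, below female PT_s there. How much of the female level is free RNA, and whether myeloid cells express *Ace*, was not tested, so the size of the difference is uncertain. The log2 fold change was 1.22 (SE 0.25, edgeR adjusted p = 2.18e-05), but 0.66 within KO mix and 2.21 within WT mix, and DESeq2 did not call it (1.47, adjusted p = 0.248). The WT mix value rests on only 94 called female cells, whose *Ace* level of 16.3 CPM comes from few UMIs. *Anpep* had 42.0, 68.1 and 84.8 CPM in male cells of KO mix, WT mix and KO male, against 31.7, 35.3, 48.5 and 44.96 in female cells of KO mix, WT mix, KO female and WT female. These sums overlapped, and the log2 fold change of 0.76 (SE 0.26, edgeR adjusted p = 0.0250) was lost with DESeq2 (adjusted p = 0.999), without the filter on low counts (adjusted p = 0.0688) and with sex called from at least 2 UMIs (adjusted p = 0.180).

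*Enpep* had 62.3, 57.7 and 64.6 CPM in male PT_s cells of KO mix, WT mix and KO male, against 67.9, 62.5, 76.3 and 67.3 in female cells of KO mix, WT mix, KO female and WT female. Male cells had the lower CPM in both mixed libraries (log2 ratios of -0.12 and -0.12), but in the fit with TMM scaling the log2 fold change was 0.03 (95% interval -0.41 to 0.46, edgeR adjusted p = 0.968), so no direction is read from it. *Agtr1a* had 21.6, 15.1 and 10.2 CPM in male and 31.0, 24.5, 23.1 and 24.5 in female cells, in the same order of libraries. The sums did not overlap, and the log2 fold change of -0.42 (SE 0.35, edgeR adjusted p = 0.500) became -0.85 (adjusted p = 0.00510) over all 7 sums with run and genotype as terms. *Agt* had 6.36, 3.78 and 5.46 CPM in male and 13.3, 5.43, 7.99 and 8.99 in female cells, with 2 to 44 UMIs behind each, and was not tested.

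The PT_s cluster also differed by sex in its defining genes. The PT_s marker *Slc7a13* was higher in male cells by 4.30 and *Atp11a* by 2.97 on the log2 scale, while the PT_c marker *Slc5a12* was lower by 2.02 and *Umod*, the defining gene of LOH, by 0.89 (edgeR adjusted p = 5.52e-212, 1.28e-133, 3.90e-14 and 3.88e-06). *Fos* and *Jun*, induced by dissociation, were higher by 0.85 and 0.73. The other PT_s markers, *Slc22a7* and *Slc5a8*, also passed, higher by 0.91 and 1.29. The other PT_c marker, *Slc5a2*, did not pass and went the other way, at 0.21. The other LOH markers, *Slc12a1* (-0.58) and *Egf* (-0.52), did not pass, nor did the dissociation gene *Hspa1a* (-0.14). The part of these markers in the values of *Mme* and *Ace* was not tested.

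**Figure D4:**
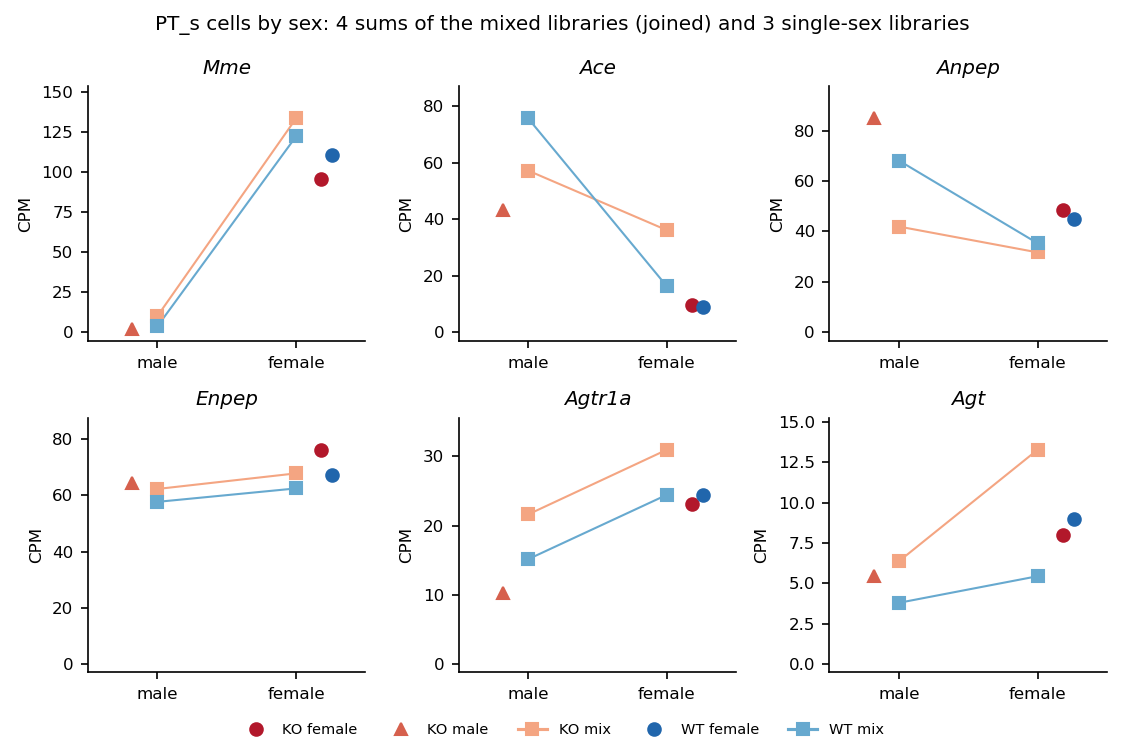
Levels in CPM (vertical axes) of 6 genes in PT_s cells by sex (horizontal axis). Squares are male and female cells of KO mix and WT mix, joined by a line for each library, and the other points are the single-sex libraries. *Mme* lies at 2.27 to 10.2 CPM in male and 95.5 to 133 in female cells.

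The sex difference of *Mme* in PT_s was set against LOH, where the gene is also expressed. Called LOH cells were few, with 39 male and 197 female in KO mix and 41 and 51 in WT mix. In LOH, *Mme* had 115 CPM in male cells of KO mix, 171 in those of WT mix and 197 in KO male, against 99.0, 73.9, 162 and 174 in female cells of KO mix, WT mix, KO female and WT female. The sums overlapped, the log2 fold change was 0.49 (SE 0.39, edgeR adjusted p = 0.997), and 0.36% of 1389 genes passed in LOH (0.216% higher, 0.144% lower). The difference between the cell types was tested by an interaction term over the mixed libraries, which 2.07% of 6194 genes passed, 1.13% upward and 0.936% downward. For *Mme* it was -4.58 on the log2 scale (SE 0.56, edgeR adjusted p = 1.32e-13), and -4.74 by DESeq2 (adjusted p = 1.46e-06). The other 4 genes tested did not pass. In CD_IC/CD_Trans *Mme* had 359 CPM in KO male, against 413 in KO female and 453 in WT female, and the mixed libraries held too few cells for the test. In PT_f *Mme* had 164 CPM in the 9 cells of KO male, against 452 in KO female and 452 in WT female.

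In PT_c, where 4.81% of 4363 genes passed (2.38% higher and 2.43% lower in male cells), 0 of the 3 genes tested (*Enpep*, *Anpep* and *Agtr1a*) passed with edgeR or DESeq2, and 1, *Enpep*, had an unadjusted edgeR p under 0.05. *Mme* in PT_c had 5.99, 7.69 and 4.31 CPM in male cells of KO mix, WT mix and KO male, against 16.1, 8.38, 16.9 and 14.1 in female cells of KO mix, WT mix, KO female and WT female, and was too low to be tested within the mixed libraries. Over all proximal tubule cells, where 16.5% of 8382 genes passed (8.55% higher and 7.99% lower), *Mme* was lower in male cells by 3.59 and *Agt* by 2.54 on the log2 scale (edgeR adjusted p = 1.74e-22 and 2.18e-07). *Agt* had 3.71 and 4.14 CPM in male and 26.3 and 22.3 in female cells of KO mix and WT mix. PT_f, the cluster highest in *Agt*, held 4 male and 88 female called cells in KO mix and 6 and 24 in WT mix, so a difference in cell composition and a difference within cells cannot be told apart here.

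Further genes of the same pathways were read in PT_s against the 17.0% of all genes that passed for sex. Of 10 other brush border peptidases 8 were tested, of which 3 rose in male cells, 3 fell and 2 did not pass, with a median log2 fold change of -0.46 against -0.0038 over all genes. *Mep1b* (meprin beta) had 54.7, 50.1 and 56.4 CPM in male cells of KO mix, WT mix and KO male, against 26.6, 8.15, 2.54 and 2.09 in female cells of KO mix, WT mix, KO female and WT female. *Folh1*, a glutamate carboxypeptidase, had 19.1, 30.3 and 23.9 CPM in male and 83.3, 95.1, 133 and 137 in female cells. Neither gene overlapped between the sexes, and their log2 fold changes were 1.49 (SE 0.29) and -1.73 (SE 0.25), with edgeR adjusted p = 4.68e-06 and 1.84e-10. *Ggt1* rose by 0.62 and *Mep1a* by 0.45, while *Dpp4* (dipeptidyl peptidase 4) fell by 1.25 and *Cltrn* fell by 0.58. *Dpep1* did not pass, at -0.66 (SE 0.27).

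Of 15 further renin-angiotensin genes 12 were in the matrix and 7 were tested in PT_s. *Prcp*, a prolylcarboxypeptidase that cleaves angiotensin II, fell by 0.64 in male cells, and 6 did not pass, among them *Atp6ap2*, the (pro)renin receptor, at 0.02 (SE 0.23). Of the peptide and amino acid carriers *Slc15a2* fell by 1.10 and *Slc3a1* fell by 0.51 of 3 tested, of the kinin genes *Klk1* (kallikrein 1) fell by 0.62 of 2 tested, and of 7 genes of brush border structure *Slc9a3r1* rose by 0.40. These values are log2 fold changes of male over female PT_s cells by edgeR, and those given as rises or falls passed the adjusted threshold. The 1 of 7 further renin-angiotensin genes and the 1 of 7 structure genes that passed are close to the 17.0% of all genes, so they are no result about these lists.

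Knockout and wild type were compared in each cell type with enough cells by edgeR on the sums of the 5 libraries. For the 7 genes in 10 cell groups (9 types and all proximal tubule cells), 45 values could be fitted and 0 passed, as did 0.0% of all genes in each of the 10 groups. DESeq2 also called 0 genes. Of the 45, 1 had an unadjusted p under 0.05 by edgeR. In PT_s, where 10342 genes were tested, *Enpep* had 66.1 ± 9.55 CPM in knockout and 60.6 ± 9.57 in wild type (SD, n = 3 and 2), a log2 fold change of 0.16 (SE 0.23). *Anpep* had 58.2 ± 23.3 CPM in knockout and 49.98 ± 7.10 in wild type, and *Agtr1a* 18.7 ± 7.32 in knockout and 21.2 ± 4.62 in wild type. Their ranges overlapped. For *Mme* and *Ace* the spread within a genotype was far larger than the difference. *Mme* had 53.8 ± 47.4 CPM in knockout and 66.7 ± 61.8 in wild type PT_s (log2 fold change -0.24, SE 1.27), and *Ace* 34.7 ± 21.9 in knockout and 36.03 ± 38.2 in wild type (-0.05, SE 1.05). Approximate 95% intervals, from the SE and a normal distribution, ran from -2.73 to 2.25 for *Mme* and from -2.12 to 2.01 for *Ace*. With so few libraries they are too narrow.

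*Ren1* in VSMC averaged 19054 ± 18314 CPM in knockout and 12658 ± 17901 in wild type (SD, n = 3 and 2), with a log2 fold change of 0.57 (SE 3.37). The value with the unadjusted p under 0.05 was *Ren1* in GL_endo, at -3.71 (SE 1.14, edgeR unadjusted p = 0.0117, adjusted p = 0.9997), and it rested on the GL_endo cell of WT female with 354 *Ren1* UMIs described above. It passed without the filter on low counts (adjusted p = 8.02e-09), in female cells alone (adjusted p = 0.000419) and without WT mix (adjusted p = 0.00136). Without renin-rich cells GL_endo had 13.6, 43.3 and 30.1 CPM in KO female, KO male and KO mix, against 4.00 and 26.9 in WT female and WT mix.

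**Figure D5:**
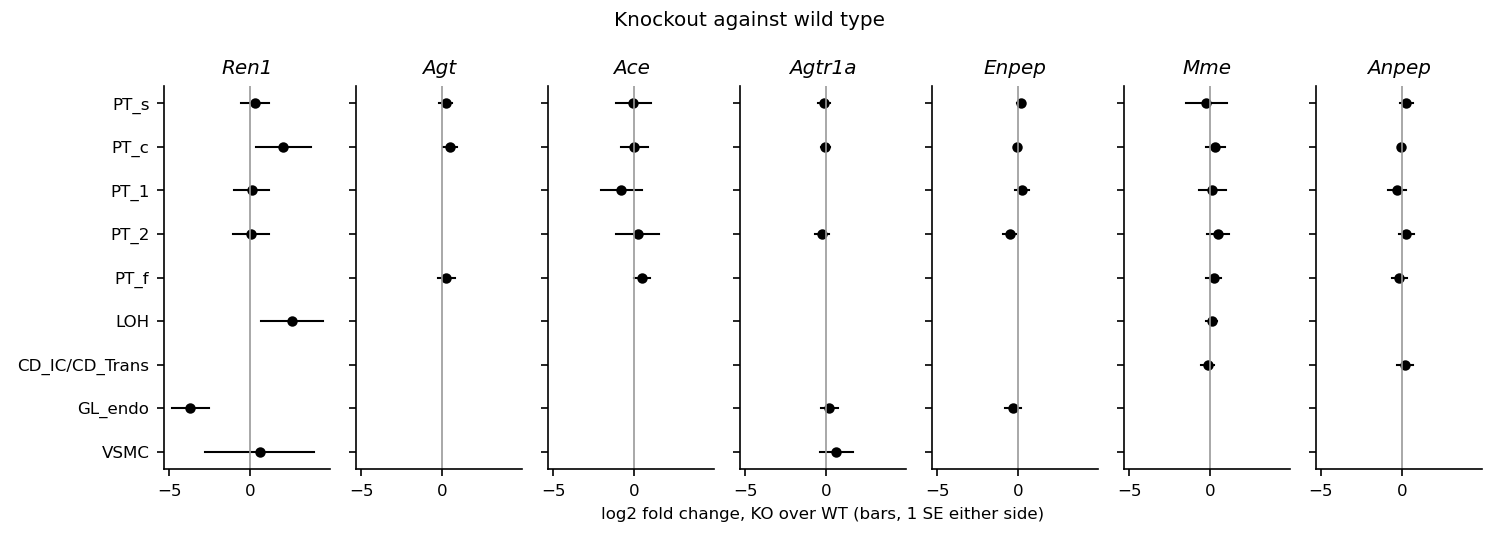
Log2 fold change of knockout over wild type by edgeR (horizontal axes) for each of the 7 genes in up to 9 cell types (rows of points), with bars of 1 SE either side. The *Ren1* point in GL_endo lies at -3.71, and no point passed the adjusted threshold.

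Over the 71 sums of a library and a cell type with at least 20 cells, the genes most like each of the 7 were found by Pearson's r of log2(CPM + 1) among 10631 genes. The sums share libraries, depth and cell types, and the values are a description. *Ren1* was closest to *Ntrk2* (0.65), *Rergl* (0.64), *Cox4i2* (0.63), *Akr1b7* (0.62) and *Efemp2* (0.62). *Agt* was closest to *Slc39a8* (0.69) and *Gramd1b* (0.68), *Ace* to *Mep1a* (0.75) and *Cyp2a4* (0.74), and *Agtr1a* to *Serpine2* (0.74). *Enpep* was closest to *Palld* (0.69) and *Ildr2* (0.64), *Mme* to *Pou3f3* (0.68) and *Kcnk1* (0.67), and *Anpep* to *Smim24* (0.70) and *Slc6a20b* (0.70). None of the 7 was among the 5 closest of another. The closest of the pairs among them were *Ren1* with *Agtr1a* (0.48), *Agt* with *Anpep* (0.48) and *Agt* with *Ace* (0.43), and *Mme* with *Agtr1a* was the most opposed (-0.42).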

How the data were processed

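The cells came from 5 droplet libraries of mouse kidney. Per the labels and the study's methods, the authors made the deposited counts with Cell Ranger 4.0.0 on mm10, and kept and annotated cells with Seurat 3.2.2.9001 after filters on cells and genes. The deposited mitochondrial percent and Scrublet doublet score per cell were computed by the authors before deposit, as were the library and cell type names (other). A further annotation column (1) was not used. Doublets were not removed here. UMIs were summed per library and cell type (at least 20 cells) and tested with edgeR 4.0.16 (quasi-likelihood, TMM, filterByExpr), with DESeq2 1.42.0 as an alternative (R 4.3.3). The script was tested on simulated data. Neighbouring cell types were compared by an exact sign-flip permutation test, as a description. Alternatives covered filters, blocks, thresholds and leaving out each library. Members and gene lists were chosen with earlier results of these data known. The rule for named genes gave the 7 genes, up to 4 genes of each list by mean CPM, and the 5 genes most alike. Other list genes named were chosen after their values were seen. Positions and promoters are from RefSeq (GRCm38.p6). A few list genes and similar genes are not reported here.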

Additional observations from a re-analysis of the deposited data

Results flagged for a closer look

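The sex difference of *Mme* differed between cell types. The difference of the male over female log2 changes, PT_s against LOH, was -4.58 (SE 0.56, edgeR adjusted p = 1.32e-13) by the interaction term. Male sums lay below female sums in PT_s in both mixed libraries, and above them in LOH in both. The LOH sums rest on 39 male and 197 female called cells in KO mix, and 41 and 51 in WT mix.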

How the results depend on the processing

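Knockout against wild type gave 0 calls in each of the 10 cell groups. With sex composition as a replicate block, which pairs KO female with WT female and KO mix with WT mix and leaves 1 residual degree of freedom, calls were 7 in CD_IC/CD_Trans, 8 in GL_endo, 8 in LOH, 11 in PT_1, 14 in PT_2, 23 in PT_c, 11 in PT_f and 4 in VSMC, with no member among them. Replicate numbers were given in accession order and pair nothing. With run as a block there were 1 in GL_endo, 2 in LOH, 11 in PT_f and 1 in VSMC, without a filter on low counts 11 in GL_endo, 1 in PT_f and 2 in VSMC, and in female cells 12 in GL_endo. Leaving out a library gave 0 to 6 in GL_endo (6 without WT mix), 0 to 9 in PT_f (9 without WT female) and 0 to 9 in VSMC (9 without WT mix). Male against female calls were 1151 in PT_s, against 230 with DESeq2, 1933 over all 7 sums and 692 with sex called from at least 2 UMIs. In PT_c they were 210, against 42 with DESeq2 and 490 over all 7 sums, and in LOH 5, against 0 and 17. In all proximal tubule cells they were 1387, against 303 with DESeq2, 666 with at least 2 UMIs and 603 in cells with at most 25% mitochondrial UMIs. The sex by cell type term gave 128 and, with DESeq2, 50. PT_s against PT_c gave 2408, against 1515 with DESeq2, 520 with no replicate block and 1546 at 25% mitochondrial UMIs. The cause was not tested. Of 480 alternative genotype values of the members 82 changed sign, none of them called, and 3 passed, all *Ren1* in GL_endo. Of 94 for sex 11 changed sign, 4 no longer passed and 2 passed. By the mean over cells of the share of UMIs *Agt* was highest in Juxt_ldl_LOH (81.1, against 68.1 in PT_f). *Anpep* became highest in PT_s and *Mme* in PT_f under several alternatives. The limit of 25% mitochondrial UMIs was not run for sex in PT_s and PT_c, nor 2 UMIs in PT_c, as too few cells were left.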

Other observations

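Genes of the kinin system and of angiotensin handling outside the 7 had their own leading cell types. *Klk1* (kallikrein 1) averaged 13687 ± 4754 CPM in DCT (SD, n = 5), and *Kng2*, a kininogen, 943 in LOH and 909 in DCT. *Atp6ap2* averaged 726 CPM in CD_IC/CD_Trans, where *Bdkrb2*, a bradykinin receptor, reached 4.54. *Nr3c2*, the mineralocorticoid receptor, was highest in CD_PC (75.5 CPM) and *Dpp4* in GL_podo (740).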
